A study of Homo sapiens with 2 samples.

Results

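The genes described here encode the core of the corepressor machinery that ETO, the repressor moiety of the RUNX1-RUNX1T1 fusion protein, brings to DNA. They are the 9 genes NCOR1, HDAC3, TBL1X, TBL1XR1, GPS2, SIN3A, SIN3B, HDAC1 and HDAC2, chosen by name out of 50464 gene symbols in the table, and each has 1 row there. Messages were counted by RNA sequencing in KASUMI-1, an established line of acute myeloid leukaemia cells in which this fusion is expressed. The cells of 1 library had been infected with a lentivirus labelled USP6, named after a deubiquitinase, and those of the other with a lentivirus labelled pccl, which is taken as its control. Both were grown in the same medium with fetal bovine serum, and neither the time of harvest nor the makeup of either virus is stated in the labels. The series title concerns RUNX1 fusion proteins being stabilised by USP6. The comparison here is of the corepressor messages in the USP6 library with those in the pccl library.

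NCOR1 is a large scaffold that binds unliganded nuclear receptors and other repressors, and it holds and activates the deacetylase HDAC3 together with the WD40-repeat proteins TBL1X and TBL1XR1 and the small subunit GPS2. SIN3A and SIN3B are the scaffolds of a separate complex, in which HDAC1 and HDAC2 remove acetyl groups from histone tails. ETO binds NCOR1 through its zinc finger domain, and the fusion protein is known for repressing RUNX1 target genes in blood progenitors by way of these deacetylases.

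Each group is 1 library, so no test was possible and no difference below has a replicate check. The USP6 library held 12518795 counts and the pccl library 12306442, of which the mitochondrial genome took 45.6% and 49.9%. USP6 itself had 70 counts in the USP6 library and 8 in the pccl library, and whether reads of the viral insert were assigned to it is not known. Of 8 markers of myeloid blasts, 7 reached 1 FPKM (fragments scaled by gene length and by the library's total count) in the USP6 library and 6 in the pccl library, with summed levels of 407 and 240 FPKM. They did not move together. The progenitor markers KIT (40.0 against 99.3 FPKM) and CD34 (4.19 against 12.6 FPKM) were lower in the USP6 library, whereas MPO (122 against 27.4 FPKM), SPI1 (230.4 against 94.0 FPKM), CD33 (5.69 against 2.70 FPKM) and ANPEP (2.39 against 0.451 FPKM) were higher. RUNX1T1 (2.63 against 3.30 FPKM) was lower in the USP6 library, and CD38 was near 0 in both libraries. Marker lists of other cells had lower sums. The 5 erythroid markers summed to 0.0782 and 0.0796 FPKM, and COL1A2, COL3A1 and DCN of the stromal list had no count. The 5 B cell markers summed to 13.9 FPKM in the USP6 library and 4.06 in the pccl library, mainly CD79A. The 6 T cell markers summed to 31.4 and 29.3 FPKM, with 4 of them at or past 1 FPKM in the USP6 library and 1 in the pccl library. CD3D, at 22.6 FPKM in the USP6 library and 27.8 in the pccl library, made up most of both sums, while CD3E (4.34 against 0.890 FPKM), CD2 (3.10 against 0.156 FPKM) and TRAC (1.27 against 0.144 FPKM) were higher in the USP6 library. CD8A, with 4 counts in the USP6 library and 18 in the pccl library, was lower, and CD3G had 5 and 3 counts. EPCAM accounted for nearly all of the stromal and epithelial sum of 8.80 FPKM in the USP6 library and 17.4 in the pccl library. The part of these differences in the results below was not tested.

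Promoter sequences of TBL1X, TBL1XR1 and GPS2 are shown because both TBL1 paralogues were lower and GPS2, their partner in the complex, was higher in the USP6 library. They come from RefSeq (GRCh38.p14), each with 250 bases before and 50 after an annotated start. Capitals mark matches, on either strand, to the RUNX core TGTGGT or TGCGGT or to the ETS core CGGAAG, none of which overlap here. The windows are chrX:9463045-9463344 on the plus strand for TBL1X, chr3:177197433-177197732 on the minus strand for TBL1XR1 and chr17:7315311-7315610 on the minus strand for GPS2.
TBL1X: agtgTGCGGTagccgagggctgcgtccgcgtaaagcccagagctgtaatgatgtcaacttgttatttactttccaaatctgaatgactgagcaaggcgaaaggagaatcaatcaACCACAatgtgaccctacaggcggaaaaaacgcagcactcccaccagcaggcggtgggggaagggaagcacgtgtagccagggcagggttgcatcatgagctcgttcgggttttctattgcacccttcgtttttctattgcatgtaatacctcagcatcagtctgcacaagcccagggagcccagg
TBL1XR1: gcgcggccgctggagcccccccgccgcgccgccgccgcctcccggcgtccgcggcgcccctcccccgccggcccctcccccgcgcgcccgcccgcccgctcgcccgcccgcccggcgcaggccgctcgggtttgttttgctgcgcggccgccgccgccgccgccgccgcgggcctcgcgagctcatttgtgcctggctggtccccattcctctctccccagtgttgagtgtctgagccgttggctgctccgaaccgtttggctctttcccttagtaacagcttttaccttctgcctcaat
GPS2: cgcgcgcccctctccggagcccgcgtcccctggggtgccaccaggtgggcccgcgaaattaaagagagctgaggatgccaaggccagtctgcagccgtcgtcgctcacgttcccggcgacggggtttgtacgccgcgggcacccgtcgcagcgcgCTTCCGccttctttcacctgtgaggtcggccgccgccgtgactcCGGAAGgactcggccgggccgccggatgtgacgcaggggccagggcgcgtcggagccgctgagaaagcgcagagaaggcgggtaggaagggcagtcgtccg
The TBL1X window holds 1 match to TGCGGT, starting at base 5, and 1 to TGTGGT on the other strand, starting at base 115. The TBL1XR1 window holds no match to any of the 3 motifs, and the GPS2 window holds 2 to CGGAAG, starting at bases 156 and 200. Of 35116 such windows in RefSeq, 13.1% hold TGTGGT, 7.29% TGCGGT and 19.5% CGGAAG. The windows also differ in composition, with 13 CpG steps and 52.3% GC in TBL1X, 44 and 75.0% in TBL1XR1 and 41 and 71.0% in GPS2, against medians of 14 and 58.7%. TBL1X has another RefSeq start 1763 bases downstream, whose window holds 32 CpG steps and no match. TBL1XR1 also has another, 918 bases downstream of the gene's listed start, whose window holds 31 CpG steps and no match. Windows not shown hold matches too. That of SIN3B, at a start 33874 bases downstream of the gene's listed start, holds 2 to TGTGGT. Those of NCOR1 hold 1 to CGGAAG and 1 to TGTGGT, and those of SIN3A 1 to CGGAAG. The windows of HDAC1, HDAC2 and HDAC3 hold none. A match is a string of letters in a window and says nothing of binding.

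Of the 9 genes, 8 reached 1 FPKM in the higher library, and these split between both directions. The size of a difference is given as log2((USP6 + 1)/(pccl + 1)) of the FPKM values. At or past 0.58 on this scale, which is 1.5-fold for a well expressed gene, SIN3B and GPS2 were higher in the USP6 library and TBL1X, TBL1XR1 and HDAC2 were lower. That is 2 of 8 higher, where 27.9% of all 10153 expressed genes were, and 3 of 8 lower, where 24.5% were. At or past 1, SIN3B and GPS2 were higher, where 13.7% of all genes were, and 0 of 8 were lower, where 11.4% were. Shares of 8 genes are too coarse to be told apart from those of the whole table, and SIN3B is among the 8 through its USP6 level alone. The median log2 ratio was -0.18 over the 8 genes and 0.06 over all expressed genes. Each fold below is a ratio of FPKM values without the pseudocount, with a 95% exact conditional binomial interval that covers counting error only. In a bulk library, fewer cells with a message and less of it in each cell cannot be told apart.

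**Figure D1:**
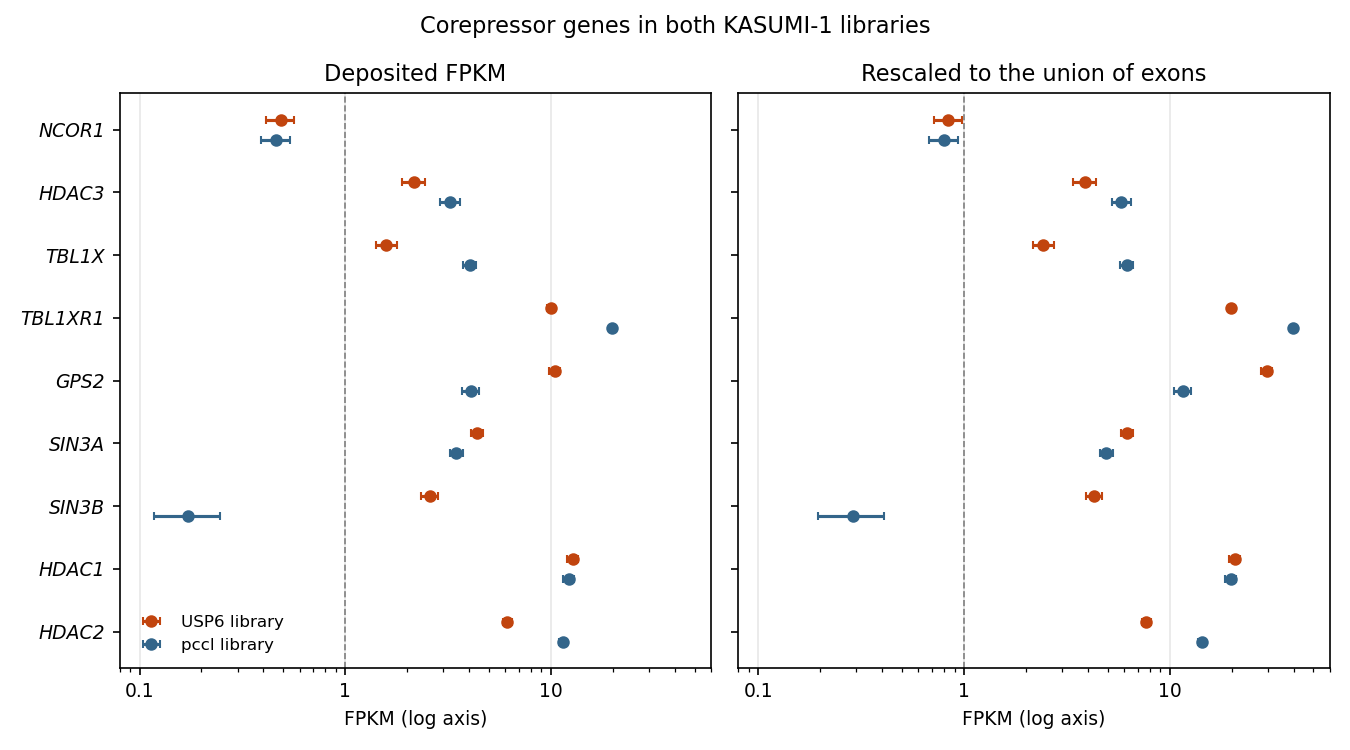
Level of each corepressor gene in the USP6 library (orange, upper of each pair) and the pccl library (blue), in FPKM on a log axis, as deposited (left) and rescaled to the union of the gene's exons (right). Bars are 95% Poisson intervals of the count, and the dashed line marks 1 FPKM. SIN3B in the pccl library, at 0.173 FPKM as deposited, lies apart from the other values, and NCOR1 lies under 1 FPKM in both libraries and both panels.

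The message of the NCOR scaffold lay under 1 FPKM in both libraries as deposited, and passed 1 FPKM by the length of the longest transcript. NCOR1 (ENSG00000141027, chromosome 17 from 16029157 to 16218185, minus strand) had 162 counts (0.486 FPKM) in the USP6 library and 151 (0.461 FPKM) in the pccl library. Their ratio of 1.05 had an interval of 0.840 to 1.33, so a difference was not detectable at this depth. It overlaps TTC19 and PIGL on the opposite strand, which had 88 and 366 counts in the USP6 library and 132 and 103 in the pccl library. Whether the counting used strand is not stated in the labels.

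HDAC3, the deacetylase that NCOR1 holds and activates, was lower in the USP6 library. HDAC3 (ENSG00000171720, chromosome 5 from 141620876 to 141636870, minus strand) had 224 counts (2.15 FPKM) in the USP6 library and 332 (3.24 FPKM) in the pccl library. It was 1.51-fold lower (1.27 to 1.79), and its log2 ratio of -0.43 stayed inside the limit of 0.58 because of the pseudocount. The interval lay under 1, although 30.2% of expressed genes had a lower log2 ratio.

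The WD40 subunits were both lower. TBL1X and TBL1XR1 bind histone tails and the scaffold, and are known as adaptors that let ubiquitin ligases remove corepressors when a receptor is activated. TBL1XR1 (ENSG00000177565, chromosome 3 from 177019355 to 177197396, minus strand) had 2894 counts (9.97 FPKM) in the USP6 library and 5673 (19.9 FPKM) in the pccl library, 1.99-fold lower (1.91 to 2.09). TBL1X (ENSG00000101849, chromosome X from 9463295 to 9719743, plus strand) had 277 counts (1.59 FPKM) and 691 (4.02 FPKM), 2.54-fold lower (2.20 to 2.93). Their log2 ratios of -0.93 and -0.96 had 13.3% and 12.5% of expressed genes below them. The paralogues are similar in sequence, and reads shared between them could not be told apart here. Summed over both genes, the level was 11.6 FPKM in the USP6 library and 23.9 in the pccl library, most of it TBL1XR1.

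GPS2 went the other way from its partners. GPS2, which bridges the NCOR scaffold and the TBL1 proteins and is known as an inhibitor of JNK signalling, had 1144 counts (10.4 FPKM) in the USP6 library and 439 (4.08 FPKM) in the pccl library. It was 2.56-fold higher (2.29 to 2.87), with a log2 ratio of 1.17 that 9.19% of expressed genes exceeded. GPS2 (ENSG00000132522) lies on chromosome 17 from 7311324 to 7315564 on the minus strand. Its end overlaps 1140 bases of EIF5A on the opposite strand, which was lower in the USP6 library, with 1813 counts against 2416. On its own strand it overlaps AC026954.2, which had 61 counts in the USP6 library and 7 in the pccl library. How reads were divided among these genes was not tested.

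The SIN3 scaffolds differed most from each other. SIN3B, which assembles a form of the complex that represses cell cycle genes, had 470 counts (2.58 FPKM) in the USP6 library and 31 (0.173 FPKM) in the pccl library, 14.9-fold higher (10.4 to 22.2). Of 10153 expressed genes, 154 (1.52%) had at least this fold, SIN3B included. SIN3B is counted as expressed through its USP6 level alone, so this rank is no independent support for the difference. Its log2 ratio of 1.61 was damped by the pseudocount, since the pccl level lay far under 1 FPKM. SIN3B (ENSG00000127511) lies on chromosome 19 from 16829400 to 16880353 on the plus strand, and the one listed gene that overlaps it, AC008737.1, had no count. SIN3A (ENSG00000169375, chromosome 15 from 75369379 to 75455842, minus strand), the scaffold that binds MXD repressors, had 965 counts (4.38 FPKM) and 753 (3.48 FPKM). It was 1.26-fold higher (1.14 to 1.39), with a log2 ratio of 0.27.

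HDAC1 and HDAC2, close paralogues that usually sit together in one complex, did not move together. HDAC1 (ENSG00000116478, chromosome 1 from 32292086 to 32333635, plus strand) had 1030 counts (12.8 FPKM) in the USP6 library and 964 (12.2 FPKM) in the pccl library. The interval of its ratio of 1.05 was 0.961 to 1.15 and held 1. HDAC2 (ENSG00000196591, chromosome 6 from 113933028 to 114011308, minus strand) had 1489 counts (6.14 FPKM) in the USP6 library and 2720 (11.4 FPKM) in the pccl library. It was 1.86-fold lower (1.74 to 1.98), and 17.0% of expressed genes had a log2 ratio under its -0.80. Over HDAC1, HDAC2 and HDAC3 the summed level was 21.1 FPKM in the USP6 library and 26.8 in the pccl library. The pseudogenes listed for HDAC1 and NCOR1 had no count, and those of GPS2 had at most 2.

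A ratio between 2 genes within a library is not changed by a factor applied to the whole library. It does depend on the gene lengths, whereas a ratio of ratios without a pseudocount does not. The shares and ratios below use the deposited lengths. By the union of exons, GPS2 stood to NCOR1 as 35.2 to 1 in the USP6 library and 14.5 to 1 in the pccl library. HDAC2 to HDAC1 was then 0.371 and 0.723, against 0.479 and 0.935 as deposited. HDAC2 made up 32.4% of the summed HDAC1 and HDAC2 level per length in the USP6 library and 48.3% in the pccl library. The ratio of HDAC2 to HDAC1 in the USP6 library was thus 0.512 times that in the pccl library (0.459 to 0.572). SIN3B made up 37.0% of the summed SIN3A and SIN3B level in the USP6 library and 4.74% in the pccl library, a ratio of ratios of 11.8 (8.10 to 17.8). TBL1X made up 13.7% of the TBL1X and TBL1XR1 level in the USP6 library and 16.8% in the pccl library, a smaller difference of 0.786 (0.676 to 0.911). Within the NCOR complex, GPS2 stood to NCOR1 as 21.5 to 1 in the USP6 library and as 8.85 to 1 in the pccl library, 2.43 times higher (1.88 to 3.13). HDAC3 to NCOR1 was 0.629 times as high (0.471 to 0.840) and HDAC3 to HDAC1 0.631 times (0.519 to 0.768). HDAC3 to HDAC2 was 1.23 times as high (1.02 to 1.48), with a lower bound close to 1. Centring on GC content, which shifts each gene by its own amount, does change these ratios of ratios. Computed with the pseudocount and this centring, that of HDAC3 to HDAC2 turned to 0.912. SIN3B to SIN3A was then 1.59, GPS2 to NCOR1 1.47 and HDAC2 to HDAC1 0.655, with their directions kept. With the pseudocount and no centring these 3 were 2.54, 2.22 and 0.550, and HDAC3 to HDAC2 was 1.29.

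The order of levels depended on the gene length behind the FPKM values. For 85.0% of the 12495 genes that had counts in both libraries and overlapping exons in GENCODE 29, the deposited FPKM implied a length equal within 0.1% to the sum of all distinct annotated exons, and for 0.112% to their union. A stretch that lies in several annotated exons is then counted several times, which lowers the FPKM of genes with many transcript models. The implied length was 2.83 times the union for GPS2 (8749 against 3089 bases), 1.73 times for NCOR1, 1.62 times for HDAC1 and 1.25 times for HDAC2. The file's TBL1X and TBL1XR1 loci differ from GENCODE 29, so rescaled values of this pair are less certain. As deposited, HDAC1 led in the USP6 library at 12.8 FPKM (Poisson interval 12.04 to 13.61), ahead of GPS2 at 10.4 (9.85 to 11.1) and TBL1XR1 at 9.97 (9.61 to 10.3), whose intervals overlap. Rescaled to the union, GPS2 led at 29.6 FPKM, ahead of HDAC1 at 20.8 and TBL1XR1 at 19.9. In the pccl library TBL1XR1 led on both scales, with 19.9 FPKM as deposited and 39.7 rescaled, ahead of HDAC1 at 12.2 and 19.8. HDAC1 at 11.44 to 12.99 and HDAC2 at 10.98 to 11.84 had overlapping intervals there as deposited, but lay at 19.8 and 14.3 FPKM rescaled. GPS2 and TBL1X, at 4.08 and 4.02 FPKM as deposited in the pccl library, lay at 11.5 and 6.18 FPKM rescaled. NCOR1 stayed under 1 FPKM by the union length, with 0.840 FPKM in the USP6 library and 0.797 in the pccl library, and passed it by the longest transcript, with 1.21 and 1.14. A gene's fold between the libraries is the same on every length.

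Genes with GC-rich transcripts tended to be higher in the USP6 library across the table, and the corepressor genes lay along that trend in part. The longest transcripts of SIN3B and GPS2 had 60.4% and 57.6% GC, and those of TBL1XR1 and HDAC2 had 34.5% and 38.2%. Centred on a lowess trend of log2 ratio with GC content, SIN3B stood at 1.06, GPS2 at 0.78, TBL1XR1 at -0.71 and HDAC2 at -0.44, which is inside the limit of 0.58. TBL1X, at 47.6% GC, was at -0.86 and HDAC3, at 52.7% GC, at -0.57. SIN3A was at 0.39, NCOR1 at 0.22 and HDAC1 at 0.17. What part GC content has in the differences was not tested.

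**Figure D2:**
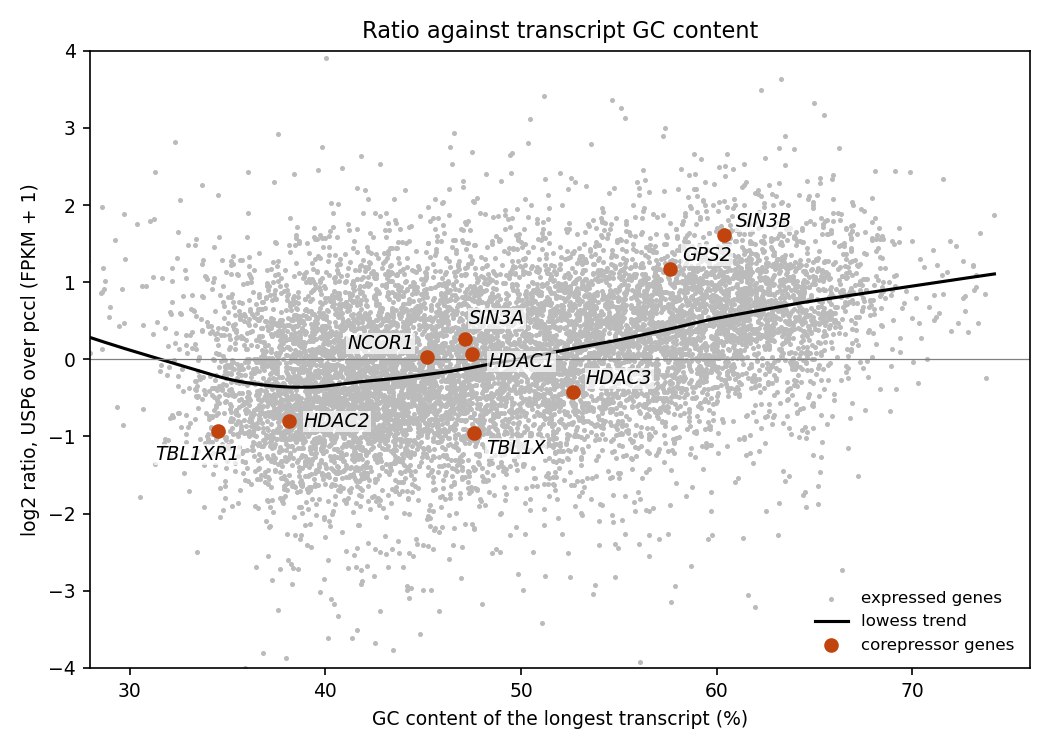
Log2 ratio of USP6 over pccl FPKM (pseudocount of 1) against the GC content of each gene's longest transcript in percent, with 1 grey point per expressed gene, the lowess trend as a line and the corepressor genes in orange. Of 10105 genes, 12 fall outside the axes. SIN3B and GPS2 lie above the trend at its GC-rich end, and TBL1XR1 and HDAC2 lie under it at its GC-poor end.

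The way the libraries were scaled decided the direction of HDAC1 and NCOR1 alone among the 9 genes. Scaled by the trimmed mean of M values, by depth in nuclear genes, by the upper quartile, to a median of 0 or on GC content, the log2 ratio of HDAC1 lay between -0.04 and 0.17 and that of NCOR1 between -0.04 and 0.22. SIN3B stayed between 1.06 and 1.63, GPS2 between 0.78 and 1.22 and SIN3A between 0.17 and 0.39. TBL1X lay between -1.04 and -0.86, TBL1XR1 between -1.04 and -0.71, HDAC2 between -0.90 and -0.44 and HDAC3 between -0.57 and -0.39.

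**Figure D3:**
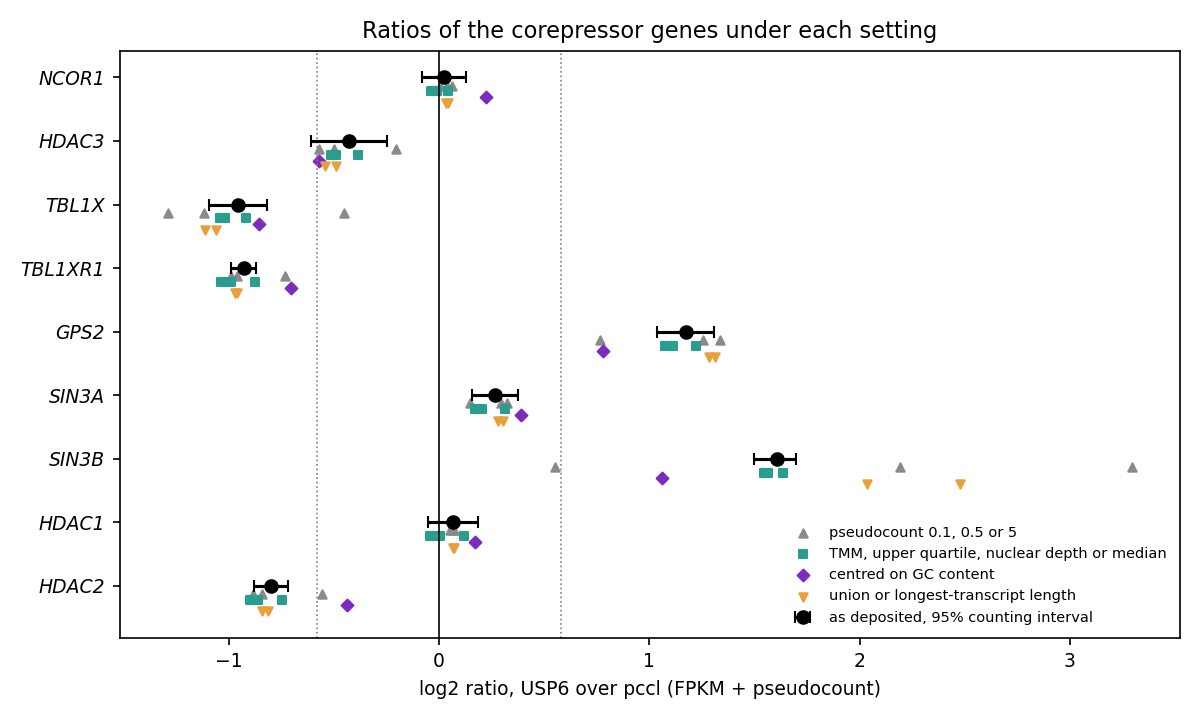
Log2 ratio of USP6 over pccl for each corepressor gene as deposited (black, with the 95% counting interval) and under other settings (coloured symbols). Dotted lines mark -0.58 and 0.58. SIN3B moves most with the pseudocount, between 0.55 and 3.29, and symbols of HDAC1 and NCOR1 alone fall on both sides of 0.

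Genes on a list of NCOR1 partners and related repressors, among them the separate corepressor BCOR, went both ways. Of 8 listed, 6 were expressed, with 1 higher, 2 lower and a median of -0.27, or -0.56 centred on GC content. Of all expressed genes, 27.9% were higher and 24.5% lower by the same limit. BCL6, a repressor that recruits NCOR1 in lymphoid cells, had 1.78 FPKM in the USP6 library and 0.196 in the pccl library, 9.04-fold higher (5.97 to 14.3). ZBTB33, known as Kaiso, was 3.03-fold lower (2.60 to 3.55), with 2.34 against 7.09 FPKM. BCOR was 4.05-fold lower (3.10 to 5.36) and SPEN 1.65-fold lower (1.46 to 1.86), with SPEN inside the limit at -0.54 and past it at -0.63 once centred on GC content. BCL6 reached 1 FPKM in the USP6 library alone and BCOR in the pccl library alone (0.298 against 1.21 FPKM). Both are thus among the expressed genes only through the library where they were higher, and their calls are no independent support.

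Among 15 expressed subunits of the SIN3 complex, 0 were higher, 4 were lower and the median was 0.03, against 27.9% higher and 24.5% lower among all expressed genes. The median was -0.03 with the trimmed mean, 0.13 centred on GC content and -0.16 with FPKM rescaled to the union of exons. SAP30, which stabilises the complex, had 27 counts (1.42 FPKM) in the USP6 library and 112 (5.995 FPKM) in the pccl library, 4.22-fold lower (2.75 to 6.68). The structural subunit SUDS3 was 2.31-fold lower (2.03 to 2.64) and the histone chaperone RBBP7 2.47-fold lower (2.07 to 2.96), although RBBP7 lay inside the limit at -0.57 once centred on GC content. MORF4L1, a chromodomain protein of the SIN3B form of the complex, was 2.64-fold lower (2.30 to 3.03), whereas SIN3B itself was higher. PHF12, of the same form, lay just inside the limit at 0.578, with 1.71 FPKM in the USP6 library and 0.816 in the pccl library.

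HDAC1 and HDAC2 also serve the NuRD, CoREST and MiDAC complexes. Of 9 expressed NuRD genes, 3 were higher, 1 was lower and the median was 0.33, which turned to -0.22 centred on GC content (all expressed genes, 27.9% higher and 24.5% lower). CDK2AP1 was 3.37-fold higher (3.04 to 3.75), the remodelling ATPase genes CHD3 1.91-fold (1.77 to 2.05) and CHD4 1.57-fold (1.46 to 1.69), while GATAD2B was 1.83-fold lower (1.58 to 2.12). Centring on GC content brought CHD3 to 0.53, CHD4 to 0.50 and GATAD2B to -0.57, all inside the limit, and left CDK2AP1 at 1.65. Of 12 expressed CoREST and MiDAC genes, including their MIER relatives, 5 were higher, 2 were lower and the median was 0.11, or -0.13 with FPKM rescaled to the union of exons. HMG20B was 3.39-fold higher (3.13 to 3.67), MIER2 3.41-fold (2.86 to 4.09) and PHF21A 2.91-fold (2.59 to 3.29). RCOR1, the CoREST scaffold, was 2.36-fold lower (1.95 to 2.88). After GC centring HMG20B was at 0.83, MIER2 at 1.05, PHF21A at 1.10 and RCOR1 at -0.72, all still past the limit. Before it they were at 1.62, 1.26, 1.12 and -0.92.

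Of the other deacetylases, 11 were expressed, with 4 higher, 0 lower and a median of 0.43, or 0.25 centred on GC content. Over all expressed genes the shares were 27.9% higher and 24.5% lower. HDAC10, a polyamine deacetylase, had 12.2 FPKM in the USP6 library and 3.44 in the pccl library, 3.54-fold higher (3.22 to 3.89). HDAC5 was 3.19-fold (2.69 to 3.79), SIRT6 2.69-fold (2.28 to 3.18) and SIRT5 2.85-fold higher (2.15 to 3.82). Centred on GC content, the log2 ratio of HDAC10 was 0.74, that of HDAC5 0.53 and that of SIRT6 0.32, against 1.57, 1.11 and 1.08 before. SIRT5 was at 0.80 with this centring and 0.73 before, and reached 1 FPKM in the USP6 library alone. Of 11 expressed coactivators and acetyltransferases, which oppose these complexes, 2 were higher, 0 were lower and the median was 0.10. KAT8 was 1.81-fold (1.59 to 2.06) and KAT2A 1.64-fold higher (1.49 to 1.79), and both lay inside the limit once centred on GC content, at 0.55 for KAT8 and 0.13 for KAT2A. NCOA2 and CREBBP stayed inside the limit, at -0.39 and 0.35.

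The ETO family that recruits the complex was represented by RUNX1T1, with 2.63 FPKM in the USP6 library and 3.30 in the pccl library (log2 ratio -0.25, or 0.02 centred on GC content), and these counts do not separate the fusion message from the normal one. CBFA2T2 had 99 and 104 counts, and CBFA2T3 had 30 and 5, with a ratio of 5.90 (2.27 to 19.5), both under 1 FPKM in both libraries. The log2 ratio of CBFA2T3 was 0.24, and turned to -0.32 once centred on GC content.

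Nuclear receptors that NCOR1 binds had 11 expressed genes, 5 higher and 0 lower, where 27.9% and 24.5% of all expressed genes were, and their median was 0.52, or 0.09 once centred on GC content. The vitamin D receptor gene VDR had 397 counts in the USP6 library and 2 in the pccl library, a ratio of 195 with an interval of 53.7 to 1617. The thyroid hormone receptor gene THRA was 6.77-fold (5.34 to 8.68), RXRA 3.09-fold (2.64 to 3.61) and RARA 1.88-fold higher (1.65 to 2.13). VDR and THRA reached 1 FPKM in the USP6 library alone. After GC centring THRA was at 1.17, RXRA at 0.61 and RARA at 0.09, against 1.71, 1.17 and 0.76 before.

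**Figure D4:**
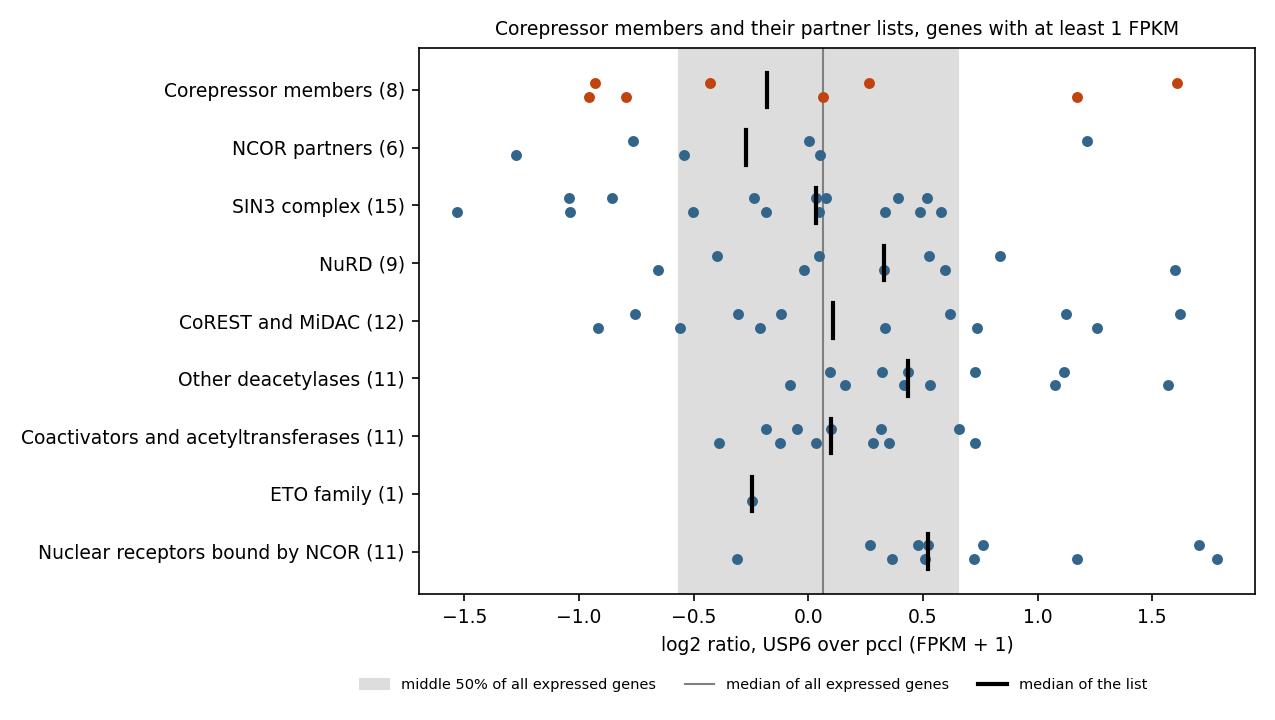
Log2 ratio of USP6 over pccl FPKM (pseudocount of 1) for each expressed corepressor gene (orange) and each expressed gene of its partner lists (blue), with the number expressed in brackets. Black bars are list medians, the grey line is the median of all expressed genes at 0.06 and the grey band their middle 50%, -0.57 to 0.65. The corepressor genes spread over both sides of the band.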

How the data were processed

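RNA of KASUMI-1 cells infected with the USP6 or the pccl lentivirus was sequenced, 1 library per group. Tools named by the submitters' processing notes, in no stated order or role, were StringTie 1.3.3b, HISAT2 2.0.4 and edgeR. Genome build, annotation and strandedness are not given in the sources used here, and the files' loci were compared with GENCODE 29 (GRCh38). The deposited counts are whole reads per gene. In the deposited FPKM values, each count is divided by a length per gene and by the total of its column, mitochondrial genes included.

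Values were summed per symbol, and a gene was taken as expressed where the larger of its values reached 1 FPKM. A gene under 1 FPKM in either library is thus counted only if it was higher in the other. With 0 residual degrees of freedom no test was made. Intervals (95%) are Clopper-Pearson intervals of the split of counts between the libraries, conditional exact intervals of odds ratios, or Poisson intervals of a count. They cover counting error only, and reads copied by PCR are not independent molecules. The trimmed mean was computed with edgeR 4.0.16 in R 4.3.3, and GC centring used a lowess of span 0.3 (statsmodels 0.14.6). Exons and transcripts came from GENCODE 29. Other software was SciPy 1.17.1, pandas 2.3.3, NumPy 2.4.6 and matplotlib 3.10.9 under Python 3.11.15. The log2 ratios, calls and intervals of folds were tried on simulated counts that held counting error only, with large changes planted in well expressed genes. GC centring, other gene lengths and ratios between genes were not simulated.

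All 9 members are named. From each of 8 partner lists, up to 4 expressed genes of largest absolute log2 ratio and any at or past 1 or -1 are named, and all ETO family genes. A gene of the first list is not reported here and is left out of its counts. PHF12 and the overlapping genes were named after their values were seen. The members and lists were chosen with earlier results of these data known. Rescaling to the union of exons or the longest transcript, and GC centring of ratios between genes, were added after seeing the data.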

Additional observations from a re-analysis of the deposited data

How the results depend on the processing

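With 1 library per group, depth limits only the counting error, and nothing here measures the spread between cultures. No paired analysis was possible because each group has 1 library. The signs of SIN3B, SIN3A, GPS2, TBL1X, TBL1XR1, HDAC2 and HDAC3 held in all 11 other settings run for each, those of HDAC1 in 9 and NCOR1 in 8. Another pseudocount, another length or a single gene identifier cannot change a sign. Only the scalings of the libraries and GC centring could do so. Of members at or past 0.58, 1 was higher and 1 lower with a pseudocount of 5, and 1 was higher with a filter of 5 FPKM, which leaves 4 of the 9 genes. At or past 1, against 2 higher as reported, there were 0 with a pseudocount of 5 and 1 each with GC centring and with that filter. Against 0 lower as reported, there was 1 with pseudocounts of 0.1 and 0.5, with a median of 0 and with either other length, and 2 with the trimmed mean and with nuclear depth. The 8 partner lists reported above hold 76 expressed genes together. At or past 0.58, 20 of these 76 were higher and 9 lower, where 27.9% and 24.5% of all expressed genes were. Such shares of all expressed genes are given for the reported setting only. With a pseudocount of 0.1, 33 of the 76 were higher, and with one of 5, 7 were higher and 3 lower. Only 25 partner genes reached 5 FPKM, and 11 of them were higher and 3 lower. At or past 1, 11 of the 76 were higher and 4 lower, where 13.7% and 11.4% of all expressed genes were. There were 3 and 0 with a pseudocount of 5, 7 and 1 with GC centring, and 4 of 25 higher with the filter of 5 FPKM. The number lower was 8 with pseudocounts of 0.1 and 0.5, 2 with the upper quartile and 7 with the longest transcript. With 1 FPKM added to each gene, the ratio of ratios was 2.54 for SIN3B to SIN3A and 0.980 for TBL1X to TBL1XR1. With GC centring as well, that of HDAC3 to HDAC2 turned to 0.912, against 1.23 as reported, and the ratio was 0.655 for HDAC2 to HDAC1, 1.59 for SIN3B to SIN3A and 1.47 for GPS2 to NCOR1. With the filter of 5 FPKM the ETO family list had no member left. The pseudocount damps ratios of genes near 1 FPKM by construction, and the cause of the other changes was not tested.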
